A study of Mus musculus with 10 samples.

Results

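The mitochondrial ribosomal proteins are the nuclear-encoded proteins of the ribosome that works inside mitochondria. They were taken as the protein-coding genes of the deposited liver table whose symbols begin with Mrpl or Mrps followed by a digit. The rule found 78 genes among 19414 listed genes, of which 14821 were protein-coding. Of the 78 genes, 51 are named here as proteins of the large subunit, 26 as proteins of the small subunit, and Mrps36 as neither. Symbols are old and do not always give the subunit: Mrps30 and Mrps18a encode large-subunit proteins. Expression was measured in CPM, read counts scaled to a common library total. Of the 78 genes, 77 averaged 1 CPM or more across the mice and were tested, and Mrpl23 was not. The 5 listed ribosomal proteins with other names, such as Dap3, fall outside the rule and were treated as a separate list.

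Liver RNA was measured by bulk sequencing of poly-A selected RNA in female HET3 mice, a stock bred by crossing several inbred strains, so that no mouse is a genetic copy of another. The Longevity diet group held 5 mice (LD_405, LD_406, LD_442, LD_513 and LD_515) and the standard diet group 5 mice (SD_403, SD_500, SD_501, SD_502 and SD_646). Both groups were fed for 5 months, and an age of 25 months is stated without settling whether it was reached before or after the feeding. No other treatment or allele is given for either group.

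The mitochondrial ribosome translates the small set of mRNAs encoded by mitochondrial DNA, whose products are core subunits of the respiratory chain and of the ATP synthase. Its RNAs come from mitochondrial DNA, while all of its proteins are encoded in the nucleus, made in the cytosol and imported. Some of these proteins have bacterial counterparts, and the rest were added during the evolution of mitochondria. Liver cells hold many mitochondria and depend on them for fatty acid oxidation, ketone production and the urea cycle.

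Estimated library depth lay between 24.7 and 39.1 M reads (M, 1000000 reads) on the Longevity diet and between 36.01 and 45.7 M on the standard diet. At the lowest depth 3 reads correspond to 0.121 CPM. The mean depth was lower on the Longevity diet (29.96 ± 6.47 M against 42.5 ± 4.35 M on the standard diet, SD, n = 5 mice each, two-sided exact permutation p = 0.0159, 0.0595 after Benjamini-Hochberg adjustment over 5 library measures). Hepatocyte markers were found for 11 of 12 genes listed, and their summed level lay between 154348 and 209013 CPM on the Longevity diet and between 108044 and 154774 CPM on the standard diet. That sum is mostly Alb, the albumin gene, at 124794 ± 20701 CPM on the Longevity diet and 79126 ± 19773 CPM on the standard diet (SD, n = 5 mice each, limma adjusted p = 0.0831). Of the 11 markers 8 had a lower mean of log2 values on the Longevity diet, with a median log2 difference of -0.02, and Cps1, the urea cycle's first enzyme, fell (log2 difference -0.98, limma adjusted p = 0.0376).

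The genes were transcribed at levels that differed widely per length of transcript. Mean levels over the 10 mice ran from 1.12 CPM per kb for Mrpl23 to 160 CPM per kb for Mrpl52. The length was that of the principal GENCODE transcript. The level of Mrpl23 is uncertain, because 98.6% of its sum with its pseudogene Mrpl23-ps1 lay on the copy. The 5 highest were Mrpl52, Mrpl12 (113 CPM per kb), the intersubunit protein gene Mrpl14 (112 CPM per kb), Mrps34 (83.1 CPM per kb) and Mrpl33 (72.8 CPM per kb). Mrpl12 encodes the stalk protein that recruits translation factors. The 5 lowest were Mrpl23, Mrpl19 (2.21 CPM per kb), Mrpl47 (2.74 CPM per kb), Mrpl48 (3.35 CPM per kb) and Mrps25 (3.78 CPM per kb). For 4 of the genes named the level depended on which transcript was counted. With the longest annotated transcript Mrpl52 came to 78.1 CPM per kb, Mrps34 to 40.5, Mrpl33 to 12.7 and Mrpl23 to 0.209. For the other genes named the principal transcript was already the longest, so this check could not change their level. Shorter transcripts were not tried. Member transcripts were short, with a median length of 1302 bases against 2810 bases over all tested genes, and their median GC content was 50.4% against 50.1%.

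**Figure D1:**
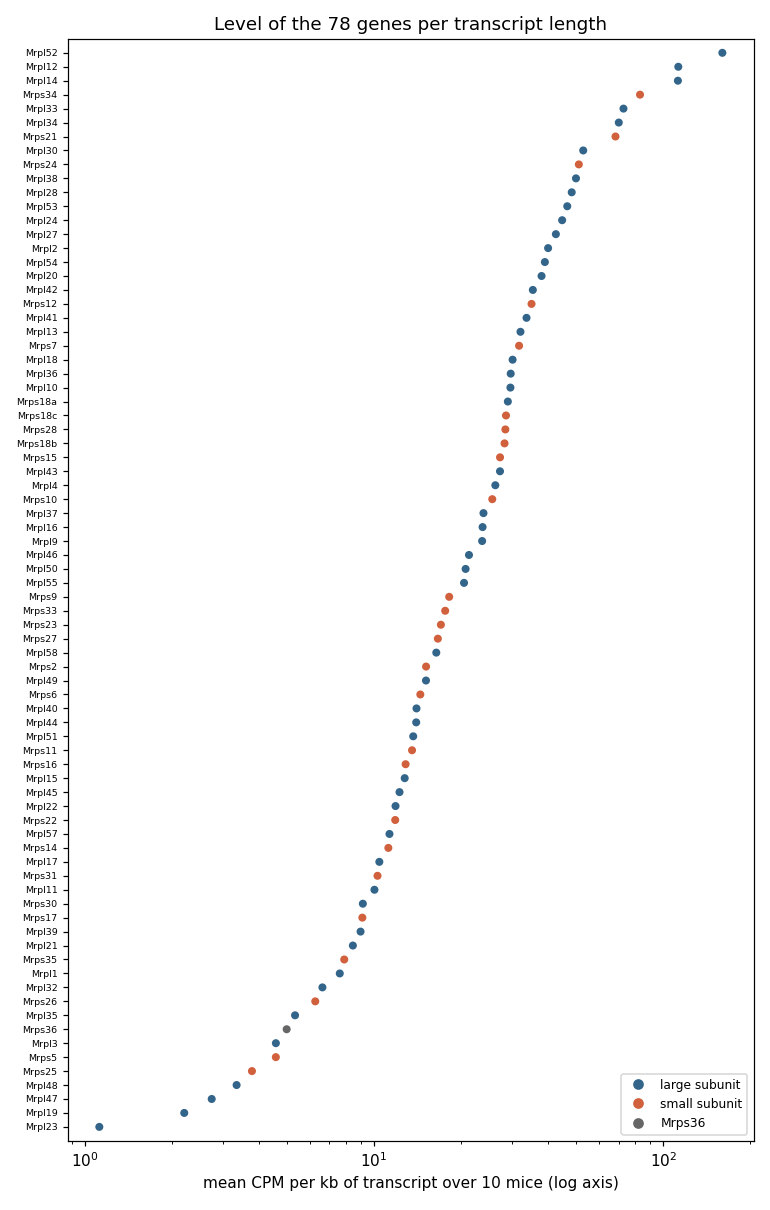
Mean level of each of the 78 genes over the 10 mice, in CPM per kb of principal transcript on a log axis, with colours for the subunit. The levels run from 1.12 CPM per kb for Mrpl23 to 160 CPM per kb for Mrpl52. The level of Mrpl23 is uncertain, as its pseudogene may share its reads.

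Promoters of the members are shown as a description. Whether their motifs have a part in the joint movement of the genes across the mice, described further on, was not tested. RefSeq (GRCm38.p6) gave a promoter window, from 250 bases before to 50 bases after the transcription start, for 69 of the 78 genes, and 9 had no entry in the table. Motifs of the factors known for genes of mitochondrial function were searched on both strands. NRF1 (nuclear respiratory factor 1) was searched as CGCANGCG, the ETS family that includes GABP as CCGGAAG, and YY1 as AANATGGCG. Below, 5 windows are printed 5′ to 3′ on the strand of the gene, in lower case with matches to these motifs in capitals. Mrpl17 and Mrps18b had small p-values in the diet comparison and matches to both NRF1 and ETS motifs, and Mrps30 had a YY1 match. Mrpl12 had the highest mean CPM of all members, and Mrpl32 had the lowest diet difference. The windows were thus chosen partly for their matches. Mrps10, the member with the smallest p in the diet comparison, had no match to these motifs.
Mrpl17 (chr7:105811038-105811337, minus strand): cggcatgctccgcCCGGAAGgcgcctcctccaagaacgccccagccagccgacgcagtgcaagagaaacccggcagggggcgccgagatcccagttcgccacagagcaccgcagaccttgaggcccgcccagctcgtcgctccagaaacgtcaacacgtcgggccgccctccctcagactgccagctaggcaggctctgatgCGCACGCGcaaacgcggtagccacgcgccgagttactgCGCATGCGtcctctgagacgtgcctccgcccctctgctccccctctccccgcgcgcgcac
Mrps18b (chr17:35916391-35916690, minus strand): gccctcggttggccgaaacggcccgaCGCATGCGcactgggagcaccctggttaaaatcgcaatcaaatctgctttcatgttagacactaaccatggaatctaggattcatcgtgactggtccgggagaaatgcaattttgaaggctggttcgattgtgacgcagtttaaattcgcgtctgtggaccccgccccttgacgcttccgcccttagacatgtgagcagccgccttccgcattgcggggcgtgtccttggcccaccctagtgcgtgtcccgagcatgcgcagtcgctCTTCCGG
Mrps30 (chr13:118387203-118387502, minus strand): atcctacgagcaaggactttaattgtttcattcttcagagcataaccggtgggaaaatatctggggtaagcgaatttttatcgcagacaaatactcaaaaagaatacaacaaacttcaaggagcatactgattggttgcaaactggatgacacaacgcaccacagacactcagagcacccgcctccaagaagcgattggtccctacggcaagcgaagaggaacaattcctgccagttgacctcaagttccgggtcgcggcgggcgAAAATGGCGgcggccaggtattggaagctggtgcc
Mrpl12 (chr11:120484387-120484686, plus strand): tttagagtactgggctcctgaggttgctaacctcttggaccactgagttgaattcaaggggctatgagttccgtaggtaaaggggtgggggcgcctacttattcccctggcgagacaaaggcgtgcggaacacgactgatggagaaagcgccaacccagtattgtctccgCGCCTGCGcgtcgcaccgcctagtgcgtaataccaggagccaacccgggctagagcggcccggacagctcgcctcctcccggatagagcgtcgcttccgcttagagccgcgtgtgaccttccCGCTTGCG
Mrpl32 (chr13:14612988-14613287, minus strand): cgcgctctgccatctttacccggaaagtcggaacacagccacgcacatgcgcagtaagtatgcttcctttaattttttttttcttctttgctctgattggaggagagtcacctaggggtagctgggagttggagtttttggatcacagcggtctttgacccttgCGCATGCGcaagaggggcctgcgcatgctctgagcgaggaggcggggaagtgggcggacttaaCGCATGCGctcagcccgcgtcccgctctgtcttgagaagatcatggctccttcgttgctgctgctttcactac
At least 1 of the 3 motifs was found in 45 of 69 member promoters (65.2%), against 34.3% of the 11560 protein-coding genes with an entry. Here and below a gene with several windows counted once, by a match in any of them. The NRF1 motif was in 20 member promoters (29.0%, against 17.4% of all), the ETS motif in 26 (37.7%, against 17.8%) and the YY1 motif in 11 (15.9%, against 5.26%). An ETS and a YY1 match occurred together in 4 member promoters and overlapped in 0 of them. The E-box CACGTG was in 5 member promoters (7.25%, against 11.1% of all), CCAAT in 27 (39.1%, against 42.6%), TATAAA in 5 (7.25%, against 9.90%) and the ATF4 motif TGATGCAA in 0, against 0.804% of all. A match describes these letters in this window and no binding. The median diet difference of the members, on the log2 scale, was 0.25 with an NRF1 match and 0.18 without, 0.23 with an ETS match and 0.15 without, and 0.20 with a YY1 match and 0.19 without.

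The genes lay on 17 chromosomes, with 11 on chromosome 11 and 8 on chromosome 17. For 18 of the 78 members (23.1%) a protein-coding gene on the opposite strand started upstream, within 1000 bases of the member's start. The share was 8.67% of all 14821 protein-coding genes. Opposite-strand pairs whose starts lie inside each other, such as Mrps11 and Mrpl46, were not counted. Among the neighbours counted were Sars2, the mitochondrial seryl-tRNA synthetase gene, 172 bases from Mrps12, and the cytosolic ribosomal protein gene Fau, 59 bases from Mrpl49. Of the 17 neighbours tested, 11 had a higher and 6 a lower mean on the Longevity diet, and 0 passed the adjusted threshold. Over all tested genes 39.6% had a higher mean, and 0.661% were higher and 1.23% lower at that threshold. For Mrpl32 and its neighbour Psma2, a proteasome subunit gene 75 bases away, the log2 differences were -0.46 and 0.14, and for Mrps18b and its neighbour Ppp1r10, 45 bases away, they were 0.56 and -0.24. Another listed gene overlapped 32 members, on the opposite strand only for 24 and on the same strand for 8. Whether reads were counted by strand is not given in the sources used here, so reads of overlapping partners may not have been told apart.

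The members' levels varied together from mouse to mouse, and the summed levels of the diets overlapped. The summed level of the 78 genes was 3883 CPM in LD_405, 3276 CPM in LD_406, 2233 CPM in LD_442, 2209 CPM in LD_513 and 2455 CPM in LD_515. On the standard diet it was 2344 CPM in SD_403, 2338 CPM in SD_500, 2748 CPM in SD_501, 1832 CPM in SD_502 and 2614 CPM in SD_646. The highest sums were in LD_405 and LD_406, the lowest was in SD_502, and the other 3 Longevity diet mice lay within the range of the standard diet. LD_405 was the highest of the 10 mice for 47 of 77 members and LD_406 for 16, while SD_502 was the lowest for 42. Over all tested genes LD_405 was the highest for 14.5% and the lowest for 37.3%. In SD_502, by contrast, 20.1% of all genes had their highest value.

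**Figure D2:**
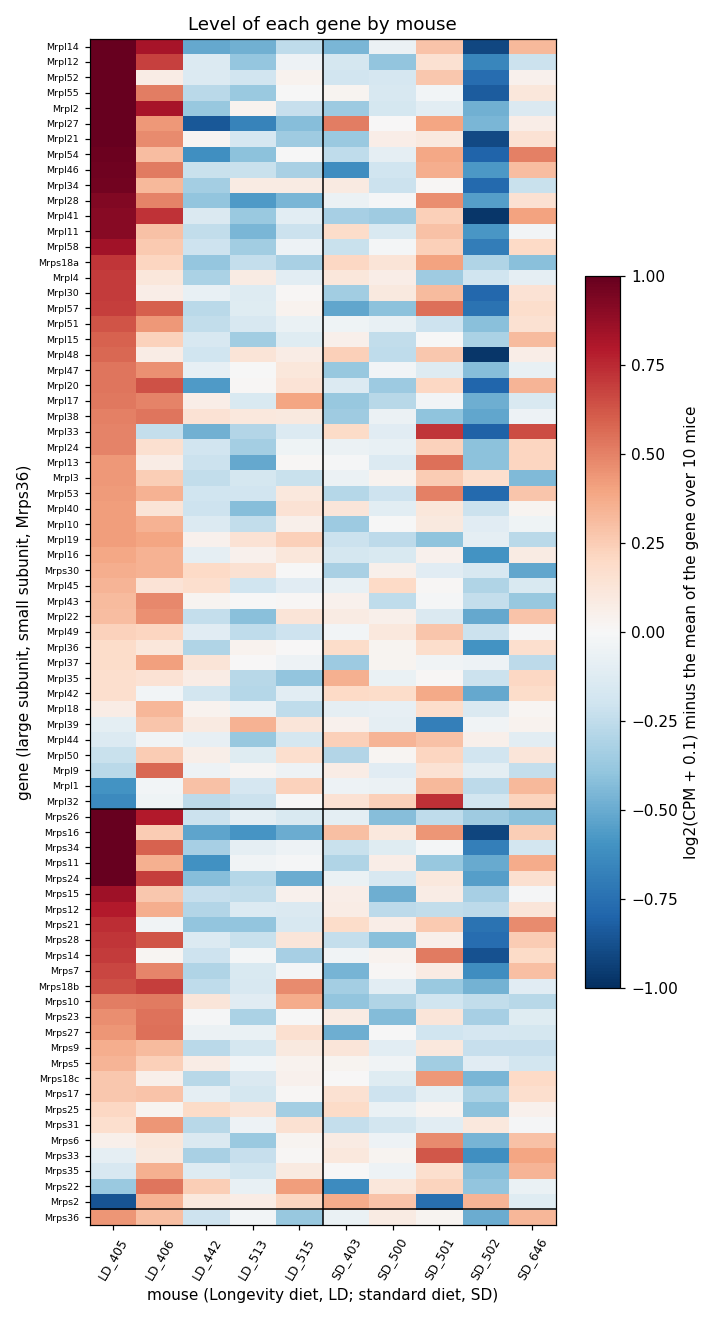
Each row is 1 of 77 genes and each column 1 mouse, Longevity diet left and standard diet right of the line; colour is log2(CPM + 0.1) minus the mean of the gene over the 10 mice. LD_405 holds the highest value of 47 genes and SD_502 the lowest of 42.

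With the diet means removed, the median correlation over pairs of members across the 10 mice was 0.60, against 0.074 over pairs of all tested genes. All genes of a mouse were read from the same library, and these values are given as a description. For 62 of 77 members the correlation with the mean of the other members was above 0.5. It was highest for Mrpl14 (0.98) and below 0 for Mrps2 (-0.62), Mrpl39 (-0.42) and Mrpl1 (-0.18). Mrps2, Mrpl39 and Mrpl1 were named after their values were seen. Mrps2, a small-subunit protein gene with a bacterial counterpart, stood at 16.6 CPM in LD_405 and at 38.3 CPM in SD_502, opposite to most members.

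The pattern across mice moved with the dependence of each library on transcript length. The median deviation of the members from their own mean over the mice, on the log2 scale, was 0.50 in LD_405, 0.35 in LD_406, -0.20 in LD_442, -0.17 in LD_513 and -0.0025 in LD_515. It was -0.06 in SD_403, -0.07 in SD_500, 0.11 in SD_501, -0.46 in SD_502 and 0.08 in SD_646. The slope of all tested genes on transcript length, in log2 units per doubling of length, was most negative in LD_405 (-0.40), followed by LD_406 (-0.13), and most positive in SD_502 (0.28). Short transcripts were relatively high in LD_405 and relatively low in SD_502. The slope averaged -0.05 ± 0.23 on the Longevity diet and 0.05 ± 0.15 on the standard diet (SD, n = 5 mice each, two-sided exact permutation p = 0.50). Once the slopes on length and GC content were removed from each library, the median deviation was 0.07 in LD_405, 0.27 in LD_406 and -0.17 in SD_502. The proteins of the cytosolic ribosome, also encoded by short mRNAs, were likewise highest in LD_405 (median deviation 0.77) and LD_406 (0.32) and lowest in SD_502 (-0.92), while some of the other mice stood in a different order. The part of transcript length in the diet difference was not tested beyond removing these slopes.

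**Figure D3:**
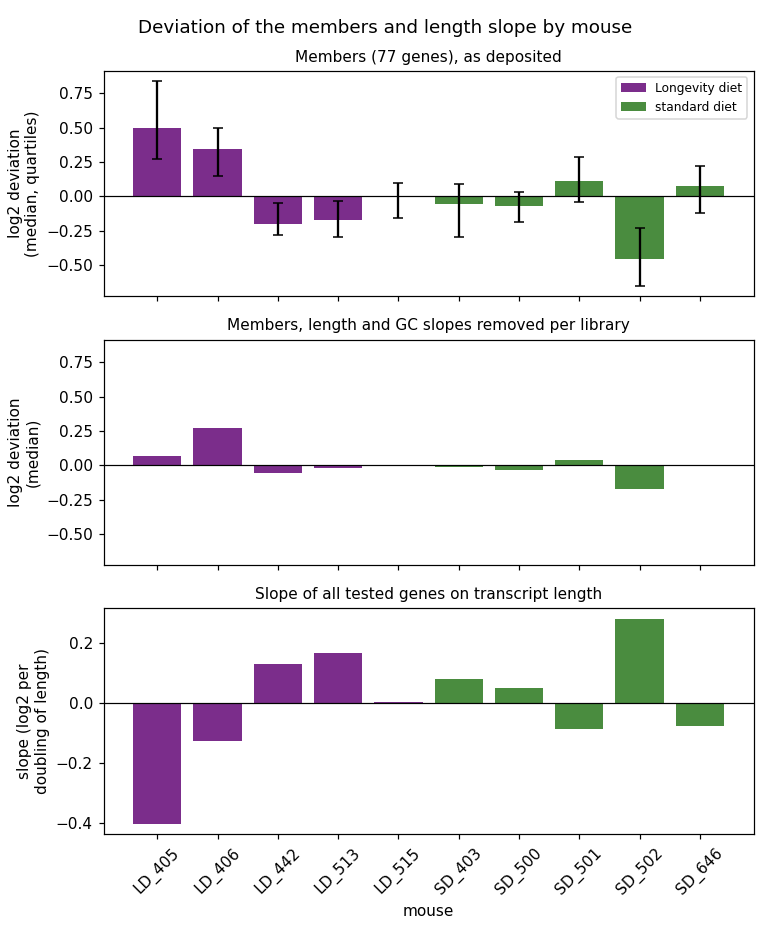
Bars give, for each mouse, the median log2 deviation of 77 members as deposited with quartiles (top), the same after length and GC slopes were removed (middle), and the slope of all tested genes on transcript length (bottom), Longevity diet left. LD_405 and LD_406 have the highest deviations and negative slopes, and SD_502 has the lowest deviation and the highest slope.

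Between the diets, most mitochondrial ribosomal protein genes had a slightly higher mean on the Longevity diet, and none passed the adjusted threshold, which few of all genes passed. Higher and lower means are those of log2(CPM + 0.1) throughout. By limma's moderated test over all 13157 genes with Benjamini-Hochberg adjustment, 0 of 77 members were higher and 0 lower at an adjusted p under 0.05, against 0.661% of all genes higher and 1.23% lower. A count of 0 among 77 genes lies near these shares and does not show that the members were unchanged. At an unadjusted p under 0.05, 8 members were higher (10.4%, against 5.92% of all genes) and 1 was lower (1.30%, against 11.6% of all genes). The count of 8 was 4 without LD_406 and 5 without SD_502, and 3 with the leading digit of the mouse number as a covariate. A higher mean on the Longevity diet was found for 59 of 77 members (76.6%), against 39.6% of all genes. The median log2 difference of the 77 members was 0.19, with quartiles of 0.02 and 0.33, and that of all genes was -0.11. The difference between these medians depended on single mice. Without LD_405 the medians were 0.08 for members and -0.04 for all genes, and without SD_502 they were 0.09 and -0.09. With the slopes on length and GC content removed they were 0.12 and -0.10, and 52 of 77 members had a higher mean.

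The differences were small. They ran from -0.46 for Mrpl32 to 0.61 for Mrps26 on the log2 scale, and the 95% confidence interval lay within a 2-fold change either way for 69 of 77 members (89.6%, against 55.8% of all genes). The interval that reached highest was that of Mrps26, a mitochondria-specific small-subunit protein gene named here as the end of the range (upper bound 1.20, limma adjusted p = 0.262). The 5 values on each diet were fully separated for 3 members, all higher on the Longevity diet (3.90%, against 2.01% of all genes), and for 0 members that were lower (against 3.49% of all genes). Within a diet, the members' median coefficient of variation was 24.4% on the Longevity diet and 18.6% on the standard diet, where all genes had 30.8% on the Longevity diet and 26.0% on the standard diet.

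**Figure D4:**
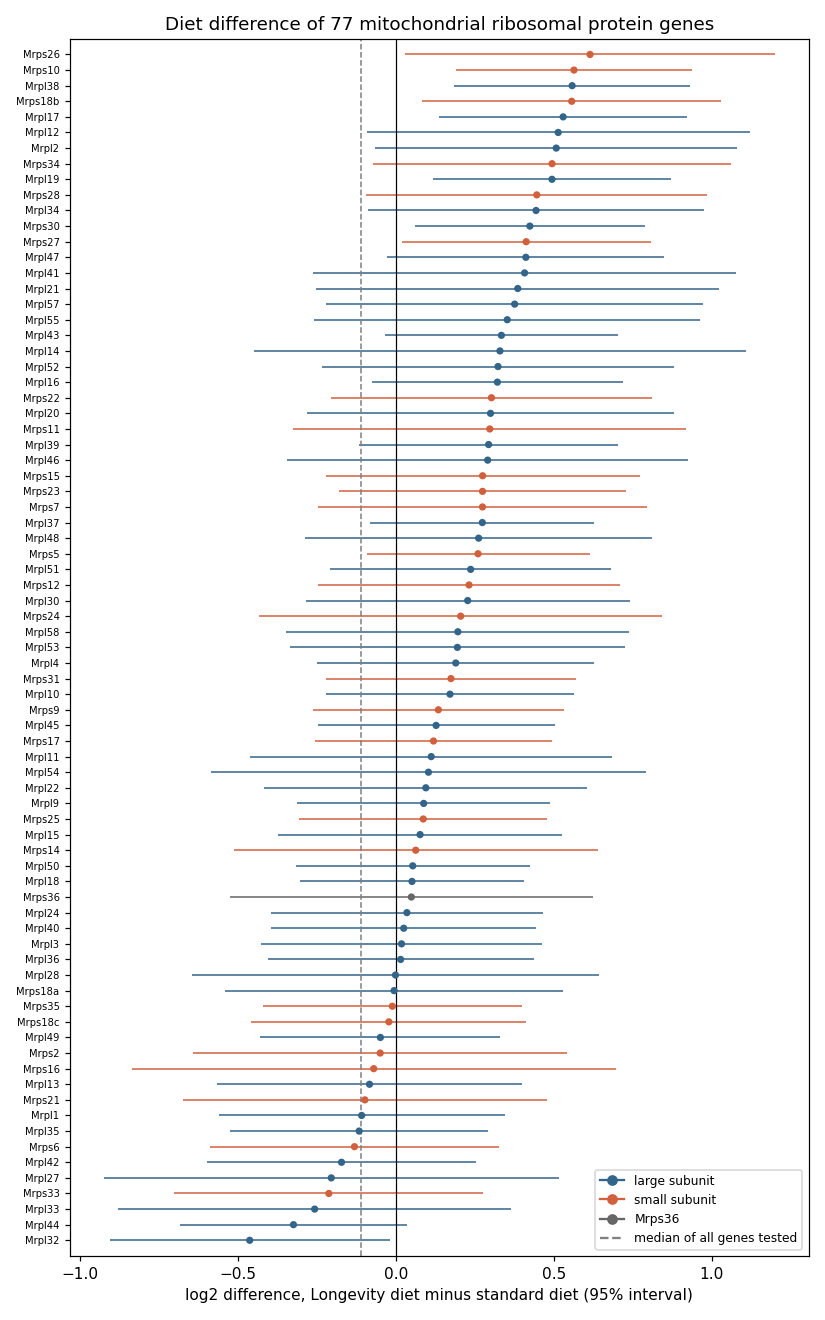
Log2 difference, Longevity diet minus standard diet, of each of 77 genes with its 95% interval from limma, coloured by subunit. The values run from -0.46 for Mrpl32 to 0.61 for Mrps26, and the dashed line marks the median of all tested genes, -0.11.

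Higher means were in the majority in both subunits. Of 50 tested large-subunit genes 39 had a higher mean on the Longevity diet, with a median log2 difference of 0.19, and of 26 small-subunit genes 19 did, with a median of 0.22. Over all genes 39.6% had a higher mean. Unadjusted p-values under 0.05 were found for 4 large-subunit genes that were higher and 1 that was lower, and for 4 small-subunit genes that were higher and 0 that were lower. The shares over all genes were 5.92% higher and 11.6% lower. The 30 genes classed here as mitochondria-specific had a median of 0.27, with 25 higher means. The 46 tested genes classed as having a bacterial counterpart had a median of 0.13, with 33 higher means. The classes were assigned from protein names and may misplace members such as Mrpl47 (log2 difference 0.41), counted as mitochondria-specific. Whether these groups differ was not tested. The 38 members with the shorter transcripts had a median of 0.22 and the 39 with the longer ones 0.17.

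In 3 members the values did not overlap between the diets. Mrps10 (ENSMUSG00000034729.17, chromosome 17, 47679812 to 47692342 on mm39, plus strand) encodes a small-subunit protein of the ribosome's head with a bacterial counterpart. Its level was 36.2, 36.4, 27.6, 23.5 and 32.8 CPM in the Longevity diet mice LD_405, LD_406, LD_442, LD_513 and LD_515, and 19.3, 20.6, 22.1, 21.4 and 20.9 CPM in the standard diet mice SD_403, SD_500, SD_501, SD_502 and SD_646. The standard diet values were tightly grouped, and LD_513 came closest to them. The log2 difference was 0.56 (SE 0.17, 95% CI 0.19 to 0.94), with an adjusted p of 0.120 by limma, the smallest of the 77 members.

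Mrpl38 (ENSMUSG00000020775.14, chromosome 11, 116022643 to 116029694, minus strand), a mitochondria-specific large-subunit protein gene, was at 97.2, 99.4, 75.8, 73.8 and 73.2 CPM in the 5 Longevity diet mice and at 53.5, 65.6, 51.7, 47.7 and 66.0 CPM in the 5 standard diet mice, in the same order. LD_405 and LD_406 were again the highest. The log2 difference was 0.56 (SE 0.17, limma adjusted p = 0.121). Mrpl19 (ENSMUSG00000030045.11, chromosome 6, 81934832 to 81942939, minus strand), one of the members with the lowest level per length, stood at 14.5, 14.3, 11.1, 11.98 and 12.8 CPM on the Longevity diet and at 9.32, 9.00, 8.18, 10.2 and 8.97 CPM on the standard diet. Here SD_502 was the highest of its diet, unlike for most members. The log2 difference was 0.49 (SE 0.18, limma adjusted p = 0.164).

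The next genes by p overlapped between the diets. Mrpl17, a large-subunit protein gene whose promoter holds 2 NRF1 matches, was at 106, 104, 77.5, 66.5 and 97.1 CPM on the Longevity diet and at 56.7, 61.0, 72.7, 52.6 and 66.6 CPM on the standard diet (log2 difference 0.53, limma adjusted p = 0.154). LD_513 lay below SD_501 and SD_646. Mrps18b was at 45.7, 47.1, 24.4, 26.1 and 40.6 CPM on the Longevity diet and at 23.1, 27.2, 22.6, 20.98 and 27.03 CPM on the standard diet (log2 difference 0.56, limma adjusted p = 0.208). On the Longevity diet 3 mice were above all standard diet mice, and LD_442 and LD_513 lay among them. Mrps30, which despite its name encodes a large-subunit protein, was at 38.4, 38.0, 34.3, 33.2 and 29.7 CPM on the Longevity diet and at 23.8, 30.9, 27.6, 26.7 and 20.8 CPM on the standard diet (log2 difference 0.42, limma adjusted p = 0.214).

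**Figure D5:**
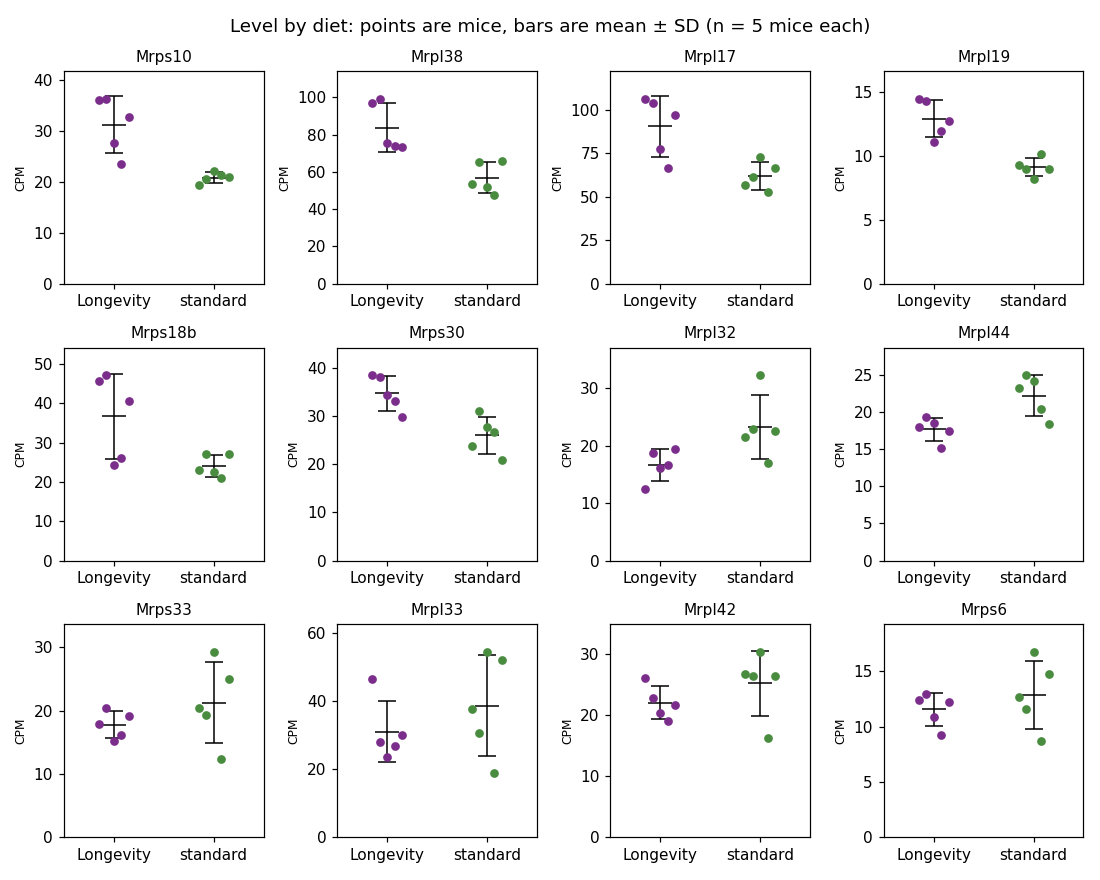
CPM of the 6 members with the smallest p-values in each direction, with Longevity diet mice left and standard diet mice right in each panel; points are mice and bars are mean ± SD (n = 5 mice each). Mrps10, Mrpl38 and Mrpl19 show no overlap between the diets, and the 6 genes with lower means overlap.

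The lowest differences were found for large-subunit genes. Mrpl32 (ENSMUSG00000015672.5, chromosome 13, 14782769 to 14787750, minus strand) encodes a large-subunit protein that is matured by a protease of the inner mitochondrial membrane before it joins the ribosome. It stood at 12.4, 18.8, 16.2, 16.6 and 19.4 CPM on the Longevity diet and at 21.5, 22.9, 32.2, 17.05 and 22.6 CPM on the standard diet. The high value of SD_501 and the low value of LD_405 set the ends of the range. The log2 difference was -0.46 (SE 0.21, 95% CI -0.91 to -0.02, unadjusted p = 0.0419, adjusted p = 0.265 by limma). Its promoter, shown above, holds 2 NRF1 matches, as that of Mrpl17 does.

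Mrpl44, a protein with an RNase III-like fold, was at 17.9, 19.2, 18.5, 15.1 and 17.4 CPM on the Longevity diet and at 23.2, 24.9, 24.1, 20.4 and 18.3 CPM on the standard diet (log2 difference -0.32, limma adjusted p = 0.337). Only SD_646 lay among the Longevity diet values. A further 4 genes had lower means with wide overlap. The log2 differences were -0.21 for Mrps33 (limma adjusted p = 0.662), -0.26 for Mrpl33 (limma adjusted p = 0.676), -0.17 for Mrpl42 (limma adjusted p = 0.683) and -0.13 for Mrps6 (limma adjusted p = 0.781). In each of these 4 genes SD_502 was the lowest of all 10 mice.

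Of the members with a described role in ribosome function, 0 passed the adjusted threshold. Over all genes, 0.661% were higher and 1.23% lower at that threshold. A count of 0 among so few genes therefore does not show that they were unchanged. Mrpl12 stood at 311, 221, 125, 105 and 133 CPM on the Longevity diet and at 122, 105, 153, 87.6 and 119 CPM on the standard diet (log2 difference 0.51, limma adjusted p = 0.368). The confidence interval of Mrpl12 ran from -0.09 to 1.12 on the log2 scale, so a rise above 2-fold was not excluded. LD_405 and LD_406 were the only Longevity diet mice above the standard diet range. The mean was 179 ± 86.2 CPM on the Longevity diet and 117 ± 24.3 CPM on the standard diet (SD, n = 5 mice each). Mrps12, of the decoding centre, was at 33.9 ± 11.5 CPM on the Longevity diet and 27.9 ± 3.87 CPM on the standard diet (log2 difference 0.23, limma adjusted p = 0.620). Mrpl58, a peptidyl-tRNA hydrolase built into the large subunit, was at 45.9 ± 16.6 CPM on the Longevity diet and 39.3 ± 9.41 CPM on the standard diet (log2 difference 0.20, limma adjusted p = 0.719). The family of Mrps18 paralogs, whose proteins sit in different places of the ribosome, had log2 differences of -0.01 for Mrps18a, 0.56 for Mrps18b and -0.02 for Mrps18c. The signs for Mrps18a and Mrps18c turned in several alternative fits. Mrps36, known as a subunit of the 2-oxoglutarate dehydrogenase complex rather than of the ribosome, was at 3.56 ± 0.868 CPM on the Longevity diet and 3.42 ± 0.702 CPM on the standard diet (log2 difference 0.05, limma adjusted p = 0.943).

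Several members have processed pseudogenes that may share their reads. Mrpl23, below the filter, was at 0.416, 0.956, 0.160, 0.483 and 0.477 CPM on the Longevity diet and at 0.692, 0.625, 1.76, 1.06 and 1.13 CPM on the standard diet. Its pseudogene Mrpl23-ps1 averaged 56.3 CPM over the 10 mice, so that 98.6% of the sum of both lay on the copy. Summed, they stood at 58.4 ± 29.2 CPM on the Longevity diet and 55.8 ± 16.2 CPM on the standard diet (SD, n = 5 mice each, limma adjusted p = 0.999). The level of Mrpl23 is therefore uncertain. The copy held 40.2% of the sum of Mrpl48 and Mrpl48-ps, 21.3% of that of Mrpl27 and Mrpl27-ps, and 10.7% of that of Mrps36 and Mrps36-ps2.

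The other genes of mitochondrial gene expression were also without a call by limma. Over all genes, 0.661% were higher and 1.23% lower at the adjusted threshold, and 5.92% and 11.6% at an unadjusted p under 0.05. Of 5 tested ribosomal proteins with other names, 4 had a higher mean, with a median log2 difference of 0.16. The 26 assembly factors had a median of 0.09, with 4 higher and 1 lower at an unadjusted p under 0.05. Rbfa, which helps mature the small subunit, was at 37.0 ± 7.51 CPM on the Longevity diet and 25.3 ± 1.62 CPM on the standard diet (log2 difference 0.53, limma adjusted p = 0.144). The 14 translation factors had a median of -0.13, with 0 higher and 2 lower at an unadjusted p under 0.05. These were Mtfmt, the formyltransferase of the initiator tRNA (log2 difference -0.58, limma adjusted p = 0.184), and Guf1, a ribosome-binding GTPase (-0.41, adjusted p = 0.269).

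The 20 genes listed with the aminoacyl-tRNA synthetases had a median of 0.18, with 4 higher at an unadjusted p under 0.05. The 4 include Qrsl1, which is not a synthetase (log2 difference 0.77, limma adjusted p = 0.157). The smallest adjusted p was that of Gars, glycyl-tRNA synthetase of mitochondria and cytosol, at 50.4 ± 2.45 CPM on the Longevity diet and 34.0 ± 3.24 CPM on the standard diet (log2 difference 0.57, limma adjusted p = 0.0728). The 20 genes of mitochondrial transcription and RNA handling had a median of 0.14 and the 11 regulators of mitochondrial gene expression one of 0.08. The list of chaperones and proteases held 14 genes, the transcription factor Atf5 among them. It had the highest median of these lists, 0.38. The smallest p of the list was that of Dnaja3, a mitochondrial co-chaperone (log2 difference 0.71, limma adjusted p = 0.108). Atf5 (0.65, adjusted p = 0.161) and Clpx, an ATPase of the matrix protease (-1.01, adjusted p = 0.234), came next. The mitochondrial ribosomal RNAs mt-Rnr1 and mt-Rnr2, captured here by poly-A selection, had log2 differences of 0.20 and 0.15 (limma adjusted p = 0.801 and 0.870). The share of reads on mitochondrially encoded genes, the templates of this ribosome, was 5.45% ± 1.58 on the Longevity diet and 9.74% ± 2.61 on the standard diet (SD, n = 5 mice each, two-sided exact permutation p = 0.0238, 0.0595 after adjustment over 5 library measures). It lay between 3.25% and 7.21% in Longevity diet mice and between 5.12% and 11.4% in standard diet mice, the lowest of which was SD_502.

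The 81 tested cytosolic ribosomal protein genes had a median of 0.31, with 72 higher means and 0 calls. Over all genes 39.6% had a higher mean, and 0.661% were called higher and 1.23% lower. Most markers of several other liver cell types had lower means on the Longevity diet, as did 7952 of all 13157 tested genes. Stellate cell and fibroblast markers (9 found of 9 listed, 9 lower means) summed to 175 to 310 CPM on the Longevity diet and 338 to 501.8 CPM on the standard diet. Sinusoidal endothelial markers (9 of 9, 9 lower means) summed to 122 to 278 CPM on the Longevity diet and 286 to 410 CPM on the standard diet. Of the markers of other cell types 2 fell, Pdgfrb of stellate cells (log2 difference -1.36, limma adjusted p = 0.0290) and S100a8 of neutrophils (log2 difference -3.79, limma adjusted p = 0.0456).

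Kupffer cell and macrophage markers (10 of 10, 9 lower means) summed to 241 to 789 CPM on the Longevity diet and 402 to 720 CPM on the standard diet. B cell and plasma cell markers (7 of 7, 7 lower means) summed to 25.5 to 101 CPM on the Longevity diet and 66.3 to 453 CPM on the standard diet. Neutrophil markers (6 of 6, 6 lower means) summed to 1.70 to 6.05 CPM on the Longevity diet, where Mpo was at 0 in every mouse, and 4.73 to 82.4 CPM on the standard diet. T and NK cell markers (9 of 9, 8 lower means) summed to 1.42 to 21.5 CPM on the Longevity diet and 6.71 to 23.5 CPM on the standard diet. Cholangiocyte markers (5 of 6, 1 lower mean) summed to 3.18 to 7.08 CPM on the Longevity diet and 3.63 to 10.4 CPM on the standard diet. The median sum on the Longevity diet was higher for T and NK cells (14.7 CPM against 10.5 on the standard diet) and cholangiocytes (5.94 against 5.26). It was lower for the other types besides hepatocytes. In bulk RNA fewer cells of a type and less RNA per cell cannot be told apart, and the part of these cell types in the members' difference was not tested.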

How the data were processed

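The deposited table holds CPM for 19414 genes in 10 livers, to which the authors added 0.0001, as its column totals show; this constant was subtracted. STAR, Partek and the mm39 genome are named in the submitters' processing notes, without versions. The counter, its use of strand and the filter are not given in the sources used here. Low values gave each library's estimated depth, but of the values below 100 reads only 84.5% to 88.0% came within 0.1 of a whole number, short of the 95% set for treating them as counts.

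Genes averaging 1 CPM or more were analysed as log2(CPM + 0.1) with limma 3.58.1 (trend and robust, statmod 1.5.0, R 4.3.3), diet as the only term, Longevity diet minus standard diet, two-sided, with Benjamini-Hochberg adjustment over 13157 genes; folds on this scale understate changes of low genes. The script was tested on simulated data. Transcript length and GC content came from GENCODE M21 (GRCm38), for 97.1% of genes, and promoters from RefSeq (GRCm38.p6). Gene positions are on mm39, as deposited.

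The members and gene lists were chosen with earlier results of these data known. Members named are the 6 with the smallest p in each direction, the 5 highest and 5 lowest per kb, those whose diets did not overlap, those under the filter and those with a described role; of other lists, up to 3 with the smallest p. The labels name separate mice, and no mouse number is shared between the diets. Alternatives were other pseudocounts, filters, scalings, weights and covariates, length and GC slopes removed, and each mouse left out in turn. Summing Mrpl23 with its copy and using the longest transcript were added after seeing the data.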

Additional observations from a re-analysis of the deposited data

Results flagged for a closer look

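In 56 groups of 5 mice checked for a mouse far from the others, 3 were found, where chance gives about 1 in 20, or 2.8. Mrpl52 stood at 7.03 on the log2(CPM + 0.1) scale in LD_405, against 5.80 to 6.07 in the other Longevity diet mice. Mrpl42 stood at 4.03 in SD_502, against 4.72 to 4.92 in the 4 others on that diet. The share of reads on mitochondrially encoded genes was 5.12% in SD_502, against 10.5% to 11.4% in the other standard diet mice.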

How the results depend on the processing

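Over 24 alternatives, 0 members passed an adjusted p under 0.05 in either direction. At an adjusted p under 0.10 the count was 0 with the settings reported and at most 2 under an alternative. The 2 were Mrpl19 and Mrps10 with weights per library, and Mrps30 and Mrpl19 with slopes removed. Both of these fits also called more of all genes at an adjusted p under 0.05 than the settings reported did. Shares of all genes under 0.10 are not given, so it is open whether the counts of 2 exceed the background. Of 18 named members followed across the alternatives, 0 were called in any, and the smallest adjusted p was 0.0650 (Mrps10, weights per library). The median log2 difference of the members stayed above 0, between 0.05 with weights per library and 0.30 with median-of-ratios scaling, and 45 to 68 members had a higher mean. Leaving out 1 mouse gave 0.08 (without LD_405) to 0.27 (without LD_442), and 50 to 66 higher means. Median-of-ratios scaling and quantile normalization moved the median of all genes by 0.10 and 0.11; relative to all genes, the members' median was 0.31 as reported, 0.31 and 0.20 under these scalings, 0.09 with weights per library and 0.12 without LD_405.

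At an unadjusted p under 0.05, 8 members were higher as reported, 4 with weights per library, 3 with the leading digit of the mouse number as covariate, and 4 to 12 without 1 mouse. The shares of all genes at this threshold are not given for the alternatives, so these counts cannot be set against them. The count lower was 1 as reported, 0 with no filter, with median-of-ratios scaling, with quantile normalization and on the total without the 50 most abundant genes, 2 with weights per library, 3 with length and GC slopes removed, and 0 to 1 without 1 mouse. Signs turned in at least 1 alternative for 33 of 77 members, at most 18 of them at once (weights per library), and the cause was not tested. Among the 18 named members they turned for 5. Mrps18a stood at 0.0982 with median-of-ratios scaling, 0.00332 with upper-quartile scaling, 0.00945 on the total without the 50 most abundant genes and 0.00497 with voom weights, and at -0.19 to 0.0944 without 1 mouse. Mrps18c stood at 0.0813 with median-of-ratios scaling, 0.0274 with quantile normalization and 0.00323 with the leading digit, and at -0.14 to 0.0826 without 1 mouse. With weights per library Mrpl58 stood at -0.0293 and Mrps36 at -0.105; with slopes removed Mrps36 stood at -0.0421 and Mrps12 at -0.00282. Without 1 mouse Mrps36 ran from -0.0694 to 0.15. No paired analysis was possible because the diets share no mouse number. Depth limits Mrpl23, whose lowest values are near the 0.121 CPM of 3 reads.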
